A study of Mus musculus with 4 samples.

Results

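The collagen genes of the neonatal mouse testis were examined in organ cultures kept with or without WIN 18,446, an inhibitor of the retinaldehyde dehydrogenases that make retinoic acid. They were taken as every gene whose symbol, alone in the annotation of a probe set on the Affymetrix Mouse Genome 430 2.0 array, has the form Col, number, a, number. This gave 42 of 18193 genes that the array names by a single symbol, with 82 of its 45037 non-control probe sets. Testes came from 129 strain mice aged 2 dpp (days post partum) and stayed in organ culture for 24 h at 37 °C under 5% CO2, the medium holding 10% fetal bovine serum, and each group had 2 arrays. The control group received the vehicle, dimethyl sulfoxide, and the treated group received WIN 18,446 at 1 µM. Nothing in the labels tells whether the numbered samples were different animals, pools or cultures; the p-values therefore cover the spread among these arrays alone, which may be technical.

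Collagens are trimers of chains that wind around one another through repeats that begin with glycine. The fibrillar types I, II, III, V, XI, XXIV and XXVII form or join the striated fibres of the interstitium, type IV forms the meshwork of the basement membrane, and the remaining types include others linked to basement membranes, ones that decorate fibrils, networks, beaded filaments and collagens that span the cell membrane. In the testis the seminiferous cords lie on a basement membrane that Sertoli cells and peritubular cells build together, and the interstitial and peritubular cells lay down the fibrillar collagens outside it.

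Values are the authors' log2 levels, so that a difference of 1 is a 2-fold change, and every difference is WIN 18,446 minus vehicle. The highest bacterial control probe set, which has no target in mouse RNA, read 2.22. Of the 82 collagen probe sets, 49 from 30 genes averaged 5 or more across the 4 arrays and were tested, and 33 were not. The probe sets that were not tested had means from 2.01 to 4.32, and 23 of them read at or below 2.22 on all 4 arrays. All probe sets of Col6a5, Col8a1, Col9a1, Col10a1, Col11a2 and Col14a1 did so, and those of Col2a1, Col7a1, Col9a2, Col12a1, Col17a1 and Col24a1 also stayed under a mean of 5, which leaves 12 genes without a tested probe set. The cartilage genes Col2a1, Col10a1 and Col11a2 and the fibril-associated Col12a1 and Col14a1 thus gave little or no signal in these cultures. Levels of different probe sets are not compared, since each has its own response.

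**Figure D1:**
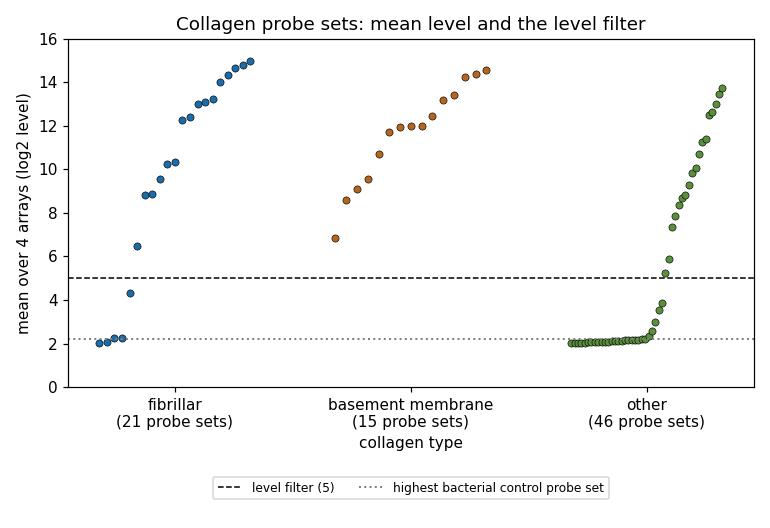
Mean log2 level over the 4 arrays of each of the 82 collagen probe sets, by type, with the level filter of 5 (dashed) and the highest bacterial control probe set, 2.22 (dotted). All 15 basement membrane probe sets lie above the filter, against 16 of 21 fibrillar probe sets and 18 of 46 of the other types.

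Most of the collagens tested differed little between the groups, as did most probe sets at large. Probe sets of 3 of them, Col9a3, Col27a1 and Col6a4, fell, though the probe set that represents Col9a3 was not called. With limma and Benjamini-Hochberg adjustment over all 20895 probe sets tested, 4 of the 49 collagen probe sets were lower at an adjusted p under 0.05 (8.16%), 0 were higher and 45 were not called. Of all 20895 probe sets 5.18% were called, 2.91% lower and 2.27% higher. At an unadjusted p under 0.05 limma gave 9 lower and 2 higher collagen probe sets. That is 11 of 49, against 4598 of all 20895 probe sets tested, a like share. The median difference was -0.09 over the 49 collagen probe sets and -0.02 over all probe sets tested. Of the collagen probe sets 55.1% differed by less than 0.2, against 54.8% of all probe sets tested. In 21 of the 49 (42.9%) the groups lay fully apart, against 53.1% of all probe sets tested. With either vehicle array left out the calls were lost, over all probe sets tested as among the collagens. Such fits have 1 array in 1 group. Without treated array 1 Col6a4 was no longer called, and without treated array 2 Col27a1 was not. With an array left out the differences ranged from -3.32 to -2.50 for the called probe set of Col9a3. They ranged from -1.05 to -0.82 and from -1.32 to -0.96 for Col27a1, and from -1.71 to -1.32 for Col6a4.

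Treated array 1 stood apart in controls: its 18S ribosomal RNA value (5′ end) was 6.55, where the remaining arrays had 8.12 to 8.67, and its B1 repeat value was 13.52, where they had 12.73 to 12.93. The called genes named here are therefore given without it too. Markers fixed for the testis were present: 9 of 9 Sertoli genes, 6 of 7 germ cell genes and 4 of 4 fetal Leydig cell genes with a probe set reached a mean level of 5. In whole tissue, fewer cells of a type and less RNA per cell cannot be told apart.

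**Figure D2:**
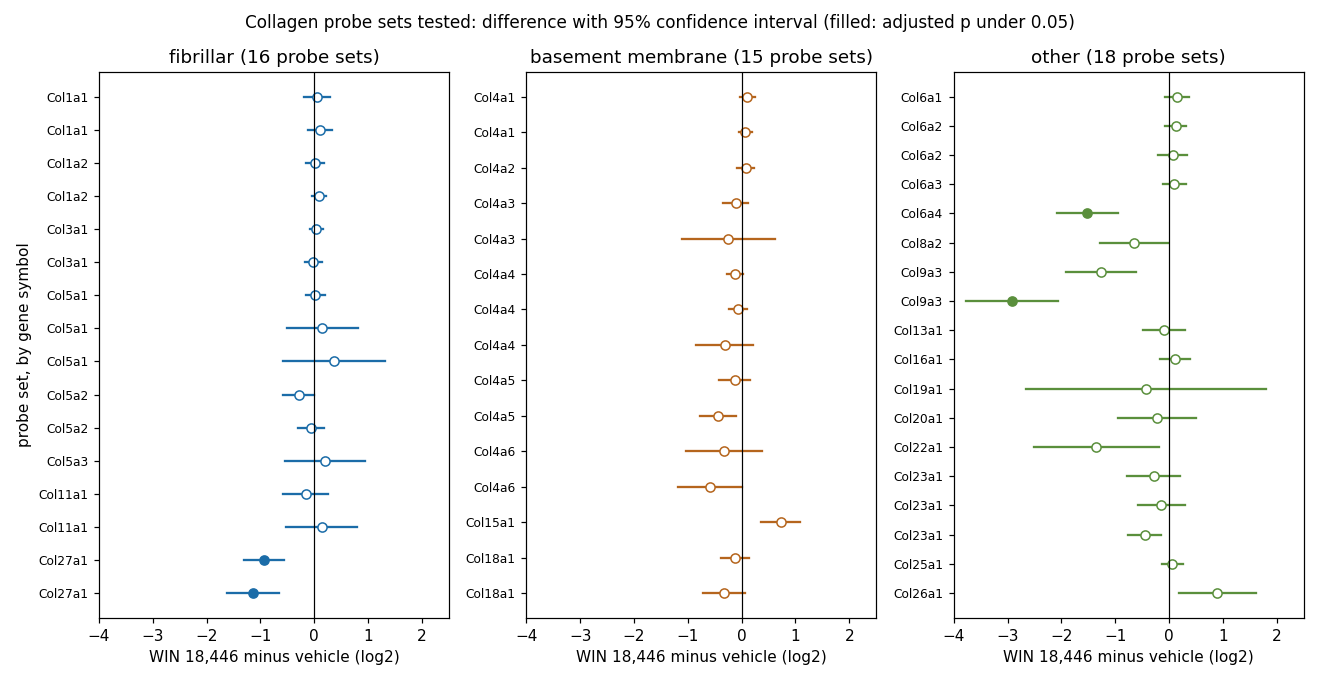
Difference in log2 level, WIN 18,446 minus vehicle, of the 49 collagen probe sets tested, each a point with its 95% confidence interval from limma, in the panels fibrillar, basement membrane and other; filled points have an adjusted p under 0.05. The 4 filled points belong to Col27a1, Col6a4 and Col9a3 and all lie below 0, while those of Col1a1, Col1a2, Col3a1, Col4a1 and Col4a2 lie within 0.2 of it.

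Among the fibrillar collagens, the main chains of types I and III were nearly level between the groups while Col27a1 fell. Of 16 tested probe sets from 8 fibrillar genes, 2 fell, 0 rose and 14 were not called, with a median difference of 0.03. Col1a1, which encodes the main chain of type I collagen, read 14.49 and 14.75 with vehicle and 14.65 and 14.71 with WIN 18,446. The treated arrays lay between the vehicle arrays, and the difference was 0.06 (95% confidence interval -0.18 to 0.30). Its second probe set differed by 0.10 (-0.12 to 0.33). Col1a2, the partner chain of type I, read 14.70 and 14.85 with vehicle and 14.78 and 14.79 with WIN 18,446, a difference of 0.01 (-0.15 to 0.17). Again the vehicle arrays enclosed the treated ones. Col3a1, the chain of type III collagen, read 14.95 on both vehicle arrays and 14.95 and 15.04 with WIN 18,446, a difference of 0.04 (-0.08 to 0.16). These intervals, like the others given here, come from limma's fit of the single probe set and are not adjusted for the number tested. The whole interval lay within 0.5 of 0 for 23 of the 49 collagen probe sets (46.9%, against 40.9% of all probe sets tested). Within 1 of 0 the order was reversed, with 35 of the 49 (71.4%, against 79.6%). Differences of 1 or more were found in 5 of the 49, against 1109 of all 20895 probe sets tested.

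Type V collagen nucleates fibrils together with type I. Its Col5a1 chain read 13.04 and 13.16 with vehicle and 13.14 and 13.11 with WIN 18,446 on the probe set of highest mean, a difference of 0.02 (-0.16 to 0.20). The other Col5a1 probe sets varied far more within each group: one read 9.68 and 10.47 against 10.86 and 10.02, the other 12.13 and 12.55 against 12.83 and 12.14. Both were highest on treated array 1 and lowest on vehicle array 1, and in both the groups overlapped. Col5a2 read 13.22 and 13.10 with vehicle and 12.73 and 13.02 with WIN 18,446, a difference of -0.29 (-0.58 to 0.00) that limma did not call (adjusted p = 0.229), although the groups did not overlap. Its second probe set differed by -0.07. Col5a3 differed by 0.20 and the probe sets of Col11a1, a chain of the thin fibrils of cartilage and other tissues, by -0.16 and 0.14, and none of these was called.

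Col27a1 encodes a fibrillar collagen best known from cartilage, and its chain forms trimers with itself. The probe set 1453191_at read 10.92 and 10.72 with vehicle and 10.00 and 9.77 with WIN 18,446, and 1429549_at read 9.62 and 9.26 with vehicle and 8.21 and 8.40 with WIN 18,446. On both, each treated array lay below each vehicle array. The first fell by 0.93 on the log2 scale (SE 0.14, 95% confidence interval -1.30 to -0.57, limma adjusted p = 0.035) and the second by 1.14 (SE 0.19, -1.63 to -0.65, adjusted p = 0.0421). These are 1.91-fold and 2.20-fold lower levels. Without treated array 1 the differences were -1.05 and -1.04, and the second was no longer called (adjusted p = 0.0882), nor was either without treated array 2. Over all alternatives the adjusted p ranged from 0.0135 to 0.332 for the first and from 0.028 to 0.334 for the second.

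None of the basement membrane collagens was called. All 15 of their probe sets, from 8 genes, were tested, and 0 rose and 0 fell by limma, with 1 lower and 1 higher at an unadjusted p under 0.05 and a median difference of -0.13. Col4a1, which with Col4a2 makes the common trimer of basement membranes, read 14.49 and 14.57 with vehicle and 14.66 and 14.61 with WIN 18,446. Its groups did not overlap, but the difference was 0.11 (-0.03 to 0.24, adjusted p = 0.329), and its second probe set differed by 0.07 (-0.05 to 0.19). Col4a2 read 14.30 and 14.35 with vehicle and 14.46 and 14.34 with WIN 18,446, a difference of 0.08 (-0.08 to 0.23) with overlapping groups. The Col4a1 and Col4a2 genes lie head to head, and their 300-base promoter windows in RefSeq share 78 bases.

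The minor type IV chains had small differences of the other sign, of which limma called none. They form the networks of specialised basement membranes, such as that of the kidney glomerulus, and the genes lie in pairs, Col4a3 beside Col4a4 and Col4a5 beside Col4a6. On the probe sets of highest mean the differences were -0.11 for Col4a3, -0.12 for Col4a4, -0.13 for Col4a5 and -0.33 for Col4a6. The largest among all 9 of their probe sets was that of 1421006_at for Col4a6, which read 7.01 and 7.25 with vehicle and 6.72 and 6.36 with WIN 18,446 (-0.59, adjusted p = 0.232). The probe set 1425475_at of Col4a5 read 10.97 and 10.87 with vehicle and 10.35 and 10.60 with WIN 18,446 (-0.45, adjusted p = 0.136). Neither of these overlapped between groups.

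The multiplexins Col15a1 and Col18a1, which carry glycosaminoglycans and lie in or just beneath basement membranes, had differences of opposite sign. Col15a1 read 11.91 and 12.29 with vehicle and 12.89 and 12.76 with WIN 18,446, so that both treated arrays stood above both vehicle arrays. The difference was 0.73 (SE 0.14, 0.37 to 1.08), and at an adjusted p of 0.0555 it was not called. It was called under 6 other settings of the fit at the same threshold, with adjusted p-values from 0.0232 to 0.0468, and not called under the rest, which include leaving out any array, with adjusted p-values from 0.0528 to 0.318. Col18a1, the source of endostatin, read 12.02 and 12.07 with vehicle and 12.02 and 11.81 with WIN 18,446 on one probe set and 11.85 and 11.94 against 11.77 and 11.35 on the other. These differed by -0.13 and -0.33 (adjusted p = 0.526 and 0.296). Endothelial cells make vessel basement membranes, and of 9 tested endothelial genes 1 fell (Robo4, -1.01, limma adjusted p = 0.0435), against 2.91% lower among all probe sets tested. Robo4 was not called with any single array left out (-1.07, adjusted p = 0.0732, without treated array 1). The median difference was -0.92, and the mean level over the list was 8.43 and 8.85 with vehicle and 7.89 and 7.79 with WIN 18,446. The other tested genes of the list, none of them called, differed by -1.33 (Cldn5), -1.17 (Tek), -1.06 (Flt1), -0.92 (Esam), -0.80 (Emcn), -0.66 (Cdh5), -0.29 (Egfl7) and -0.0006 (Eng). At an unadjusted p under 0.05 limma gave all of these as lower except Egfl7 and Eng. Among all 20895 probe sets tested 4598 were under it, in either direction. Of those not tested, Tie1 read 5.16 and 4.97 with vehicle and 2.43 and 2.32 with WIN 18,446. Pecam1 read 4.35 and 5.68 against 4.07 and 4.07, and Kdr 2.12 and 2.93 against 2.09 and 2.13. Plvap read at or below 2.22 on all arrays. The part of endothelial cells in the basement membrane values was not tested.

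**Figure D3:**
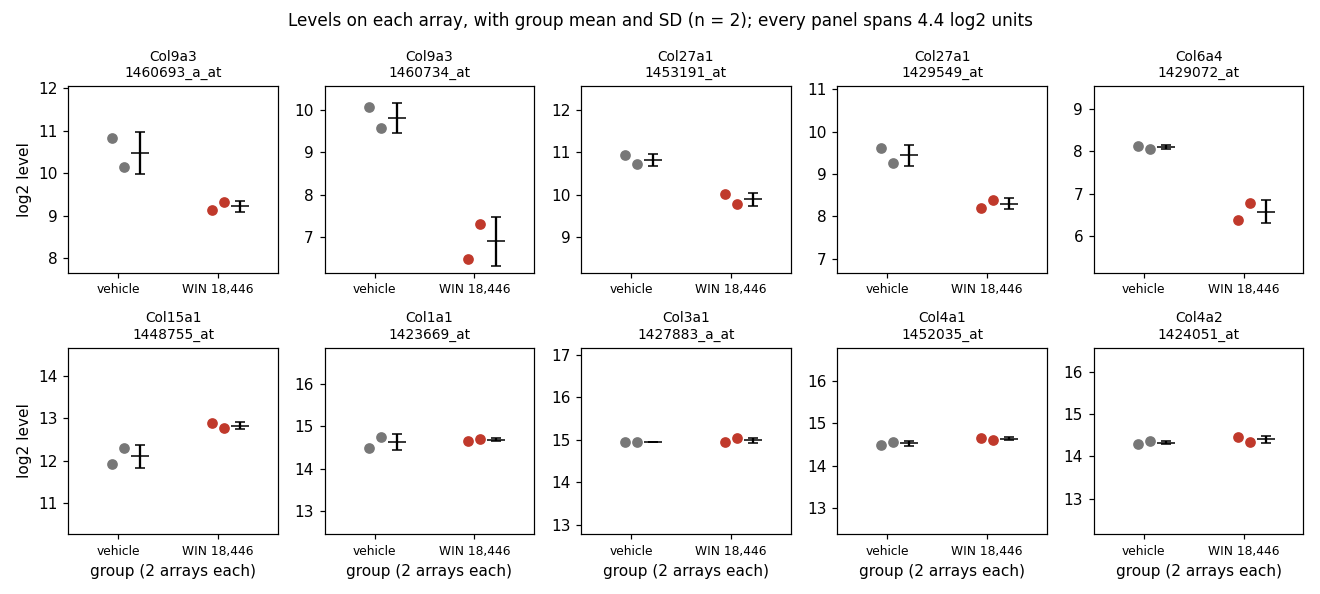
Log2 level on each array, with the group mean and SD (n = 2), for Col9a3 and Col27a1 (2 probe sets each), Col6a4, Col15a1, Col1a1, Col3a1, Col4a1 and Col4a2; the vertical axes start at different levels and span the same range. Treated arrays lie below the vehicle arrays in the panels of Col9a3, Col27a1 and Col6a4 and above them in that of Col15a1, while those of Col1a1, Col3a1 and Col4a2 overlap.

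Among the other collagens Col6a4 fell, and so did Col9a3 on 1 of its 2 tested probe sets by limma. Of 18 tested probe sets from 14 genes, 2 fell, 0 rose and 16 were not called by limma, with a median difference of -0.18. At an unadjusted p under 0.05 limma gave 7 of the 18, of which 1 was higher and the rest lower. Among all 20895 probe sets tested 4598 were under it, in either direction. Col9a3 encodes a chain of type IX collagen, a fibril-associated collagen of cartilage that joins chains of 3 genes in 1 trimer. The probe set 1460734_at read 10.06 and 9.57 with vehicle and 6.49 and 7.31 with WIN 18,446, and 1460693_a_at read 10.83 and 10.14 against 9.13 and 9.32. On both the groups were apart. The first fell from 9.81 ± 0.35 (SD, n = 2) to 6.90 ± 0.58, which is 7.53-fold (difference -2.91, SE 0.34, adjusted p = 0.0202). The second, which has the higher mean and so represents the gene, was 2.40-fold lower and was not called (-1.26, SE 0.25, adjusted p = 0.0608). It was called in 5 of the other settings of the fit at the same threshold, and its adjusted p ranged from 0.0252 to 0.323 over all alternatives. Without treated array 1 the first probe set differed by -2.50 (adjusted p = 0.0332; range over all alternatives 0.00951 to 0.289). The remaining probe set, 1420280_x_at, read at or below 2.22 on all arrays.

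The partner chains of Col9a3 gave no such signal. Both probe sets of Col9a1 read at or below 2.22 on all arrays, and that of Col9a2 had a mean of 2.18. The cartilage and bone markers were also mostly dim: of 8 with a probe set 2 were tested, 0 of 2 were called by limma, and Matn1, Ibsp, Sp7 and Snorc read at or below 2.22 throughout. The proteoglycan Acan read 7.35 and 7.08 with vehicle and 6.17 and 4.96 with WIN 18,446 (-1.65, adjusted p = 0.106), and Hapln1, which links it to hyaluronan, differed by -0.19. The mean of both was 8.52 and 8.15 with vehicle and 7.65 and 7.18 with WIN 18,446. The part of cartilage-like cells in the Col9a3 and Col27a1 values was not tested.

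Type VI collagen makes the beaded filaments around cells. Its common chains stayed close between the groups: Col6a1 read 13.63 and 13.68 against 13.91 and 13.69 (0.15, -0.08 to 0.37), Col6a2 13.33 and 13.50 against 13.58 and 13.51 (0.13, -0.08 to 0.33), and Col6a3 12.39 and 12.52 against 12.59 and 12.52 (0.10, -0.10 to 0.31). None of them was called. Col6a4, a further chain of type VI, read 8.12 and 8.06 with vehicle and 6.38 and 6.77 with WIN 18,446. The treated arrays lay well below the vehicle arrays, and it fell 2.86-fold (difference -1.51, SE 0.22, 95% confidence interval -2.08 to -0.95, limma adjusted p = 0.0309). Without treated array 1 the difference was -1.32 and was not called (adjusted p = 0.0553; range over all alternatives 0.0116 to 0.317). Its second probe set read at or below 2.22 on all arrays, as did that of the neighbouring gene Col6a5.

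Single collagens of the remaining classes varied more, and none was called. Col22a1, a fibril-associated collagen of tissue junctions, read 9.01 and 8.07 with vehicle and 6.69 and 7.69 with WIN 18,446 (-1.35, SE 0.46, adjusted p = 0.177). Its difference was -0.85 without treated array 1 and ranged from -1.85 to -0.85 with an array left out. The other probe sets of Col22a1 were too dim to be tested. Of these, 1429280_at read 3.49 and 2.65 with vehicle and 2.71 and 3.07 with WIN 18,446. The probe set 1446851_at read at or below 2.22 on all arrays. Col26a1, a secreted collagen first described in testis and ovary, read 8.14 and 8.34 with vehicle and 9.50 and 8.78 with WIN 18,446 (0.90, SE 0.28, adjusted p = 0.148), and without treated array 2 it was called (1.26, adjusted p = 0.0403; range over all alternatives 0.0403 to 0.551), while without treated array 1 the difference was 0.54 (adjusted p = 0.225). Col8a2, a short-chain collagen known from the eye, differed by -0.66 (adjusted p = 0.214), and by -0.37 without treated array 1. The membrane-spanning Col23a1 differed by -0.14 to -0.45 on its 3 probe sets, Col13a1 by -0.09 and Col25a1 by 0.06. Col19a1 read 7.18 and 4.99 with vehicle and 4.84 and 6.48 with WIN 18,446, so that its arrays differed more within the groups than between them. The fibril-associated Col16a1 differed by 0.11 and Col20a1 by -0.22.

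Where a gene had more than 1 tested probe set, their differences mostly had the same sign. Of 16 such genes, 14 had differences of 1 sign, and 15 had the same call on each. The exceptions in sign were Col3a1 and Col11a1, and that in call was Col9a3, whose probe sets differed by 1.65 log2 units. Genes that RefSeq (GRCm38.p6) places side by side had these differences on their probe sets of highest mean: 0.04 for Col3a1 and -0.29 for Col5a2, 0.13 for Col6a2 and 0.15 for Col6a1, and 0.11 for Col4a1 and 0.08 for Col4a2.

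Promoter sequence was at hand for 33 of the 42 genes, in 36 windows from RefSeq (GRCm38.p6), and those of the 2 called genes with an entry, Col27a1 and Col6a4, are shown with that of Col15a1, whose difference had the other sign. Each is the 250 bases just before the start of the gene, 5′ to 3′ on the strand of the gene: chr4:63215162-63215411 on the plus strand for Col27a1, chr9:106096692-106096941 on the minus strand for Col6a4, and chr4:47207762-47208011 on the plus strand for Col15a1. Capitals mark matches on either strand to the GC box GGGCGG or the CCAAT box CCAAT, none of which overlap here.
Col27a1: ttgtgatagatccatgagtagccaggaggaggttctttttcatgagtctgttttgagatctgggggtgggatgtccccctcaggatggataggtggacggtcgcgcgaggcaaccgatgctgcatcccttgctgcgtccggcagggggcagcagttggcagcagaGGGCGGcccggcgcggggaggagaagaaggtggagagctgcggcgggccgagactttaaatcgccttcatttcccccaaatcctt
Col6a4: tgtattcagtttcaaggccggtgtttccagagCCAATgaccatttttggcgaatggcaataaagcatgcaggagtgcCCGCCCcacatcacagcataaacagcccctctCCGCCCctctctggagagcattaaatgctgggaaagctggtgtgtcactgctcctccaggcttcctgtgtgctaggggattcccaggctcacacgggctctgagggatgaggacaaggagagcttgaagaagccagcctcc
Col15a1: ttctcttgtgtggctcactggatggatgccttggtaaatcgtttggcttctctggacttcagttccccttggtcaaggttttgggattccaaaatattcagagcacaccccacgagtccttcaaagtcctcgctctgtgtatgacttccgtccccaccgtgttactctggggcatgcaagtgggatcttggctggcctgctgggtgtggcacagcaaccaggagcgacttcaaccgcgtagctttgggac

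In these windows Col27a1 held 1 GC box, Col6a4 held 2 GC boxes and 1 CCAAT box, and Col15a1 held neither. The GC box was in 21 of the 36 collagen windows and in 32.7% of all 32851 promoter windows, and the CCAAT box in 13 of the 36 and in 33.8% of all. The nuclear receptor motif AGGTCA was in 8 of the 36 collagen windows and in 14.0% of all, and in none of the 3 shown. Its direct repeat with a spacer, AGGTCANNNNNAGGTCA, to which retinoic acid receptors can bind and which contains that motif, was in 0 of the 36 and in 3 of all 32851. The letters ACAAAG, bound by SOX factors, were in 3 of the 36 and in 16.5% of all, and TATAAA in 5 of the 36 and in 12.4% of all. A match describes these letters and not a site that is used.

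The genes that modify, export, cut and bind collagen were mostly not called, with P4ha2 higher and Adamts3, Fmod and Ogn lower. Of 60 genes on this list 55 had a probe set with their symbol and 41 were tested, and limma called 4 (9.76%, against 5.18% of all probe sets tested), 1 higher and 3 lower, with a median difference of -0.07. At an unadjusted p under 0.05 limma gave 14 of the 41, against 4598 of all 20895 probe sets tested. With vehicle array 1, vehicle array 2 or treated array 1 left out the 4 calls were lost. With either vehicle array left out that also held for the calls over all probe sets tested. Without treated array 1 the differences of the 4 called genes were 0.84 for P4ha2, -2.12 for Adamts3, -1.11 for Fmod and -0.55 for Ogn, with limma adjusted p-values from 0.0595 to 0.0735; over all alternatives these p-values ranged from 0.0116 to 0.346.

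In the first step chains are hydroxylated and glycosylated in the endoplasmic reticulum. Of 13 tested genes of this step 1 rose, against 2.27% higher among all probe sets tested. P4ha2, a catalytic subunit of prolyl 4-hydroxylase, read 10.24 and 10.50 with vehicle and 11.30 and 11.21 with WIN 18,446. The treated arrays lay above the vehicle arrays, and it rose 1.85-fold (difference 0.89, SE 0.13, 0.56 to 1.22, limma adjusted p = 0.0309). P4hb, the other subunit of that enzyme, and the lysyl hydroxylase Plod2 differed by 0.27 and 0.38 and were not called (adjusted p = 0.0635 and 0.125), and P4ha1 differed by 0.18 (adjusted p = 0.431). P4hb and Plod2 were higher at an unadjusted p under 0.05 (limma). Of 7 genes of folding and export limma called 0 (2 at an unadjusted p under 0.05). Serpinh1, the collagen chaperone, differed by 0.10 (adjusted p = 0.344) and Creb3l1, a transcription factor of secretory cells, by -0.53 (adjusted p = 0.151).

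Adamts3, a protease that removes the amino-terminal propeptide of fibrillar procollagens, read 8.15 and 7.46 with vehicle and 5.95 and 5.69 with WIN 18,446. The groups were far apart, and it fell 3.97-fold (difference -1.99, SE 0.30, -2.76 to -1.22, adjusted p = 0.0333). Of the other tested genes of this step, Bmp1, which cuts the carboxy-terminal propeptide, differed by -0.28 and its enhancer Pcolce by 0.02. Among 5 cross-linking genes limma called 0 (2 at an unadjusted p under 0.05): Loxl1 differed by -0.29, Tgm2 by -0.30 and Lox by -0.01.

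Of 8 tested genes of proteins that bind fibrils 2 fell, against 2.91% lower among all probe sets tested. Fibromodulin, Fmod, which binds and regulates type I fibrils, read 9.12 and 8.93 with vehicle and 7.75 and 7.92 with WIN 18,446 (-1.19, SE 0.18, limma adjusted p = 0.0322). Ogn, a related leucine-rich proteoglycan, read 11.65 and 11.63 with vehicle and 10.87 and 11.09 with WIN 18,446 (-0.66, SE 0.11, adjusted p = 0.0418). Both had all treated arrays below all vehicle arrays. Aspn and Dcn of the same family differed by -0.76 and -0.53 (adjusted p = 0.125 and 0.222), Sparc by -0.24 (adjusted p = 0.0711) and Bgn by 0.04. Aspn, Dcn and Sparc were lower at an unadjusted p under 0.05 (limma), while Bgn, Tnxb and Thbs2 were above it. Prelp, which links collagen to basement membrane proteoglycan, read 5.62 and 5.20 with vehicle and 2.07 and 2.08 with WIN 18,446, where both arrays were below 2.22. It was thus at least 9.17-fold lower, taking the mean with vehicle against 2.22. Its mean over the arrays was under 5, so it was not tested in the main fit. With no filter on level limma did not call it (adjusted p = 0.0719). A filter of 2 arrays at 5 or above let it in through its vehicle arrays alone, so the call under that filter is not read. Among 5 collagen receptors limma called 0 (1 at an unadjusted p under 0.05): Ddr2, a receptor kinase for fibrillar collagen, differed by 0.42 (adjusted p = 0.114) and Ddr1 by 0.05.

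**Figure D4:**
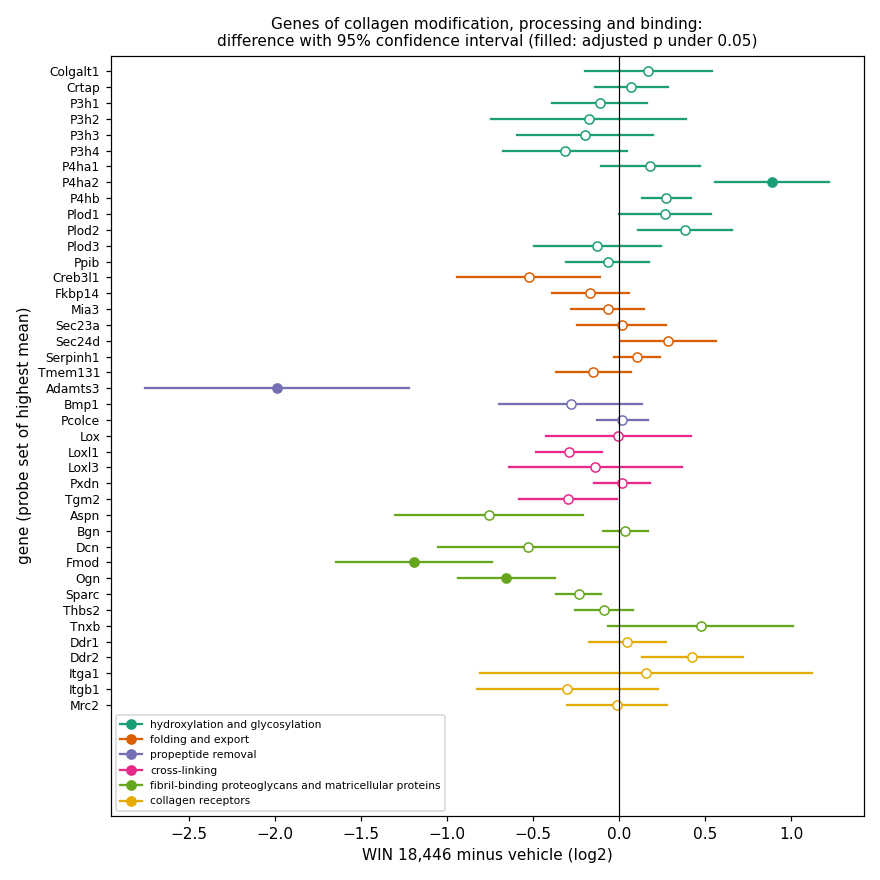
Difference in log2 level, WIN 18,446 minus vehicle, of the 41 tested genes of collagen modification, processing and binding, coloured by role, with 95% confidence intervals from limma; filled points have an adjusted p under 0.05. P4ha2 lies to the right of 0 and Adamts3, Fmod and Ogn to the left, while Bgn, Pcolce and Pxdn sit close to 0 with short intervals.

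The markers of the cells that lay down most collagen had these values. Of 7 tested stromal fibroblast genes limma called 0 (1, Dcn, at an unadjusted p under 0.05), with a median difference of -0.07. The list means were 12.96 and 13.10 with vehicle and 12.89 and 12.90 with WIN 18,446. The genes differed by -0.53 (Dcn), -0.39 (Fbln1), -0.13 (Tcf21), -0.07 (Nr2f2), -0.02 (Pdgfra), 0.06 (Dpt) and 0.09 (Pdgfrb). Of 6 tested peritubular and smooth muscle genes 1 fell, against 2.91% lower among all probe sets tested. It was the intermediate filament gene Des (-1.47, limma adjusted p = 0.0349), not called with any single array left out and -1.51 without treated array 1. The others differed by -0.86 (Lmod1), -0.38 (Tagln), -0.26 (Myh11), -0.23 (Acta2) and 0.04 (Ptch1). Lmod1, Tagln and Acta2 were lower at an unadjusted p under 0.05 (limma), while Myh11 and Ptch1 were above it. The list had a median of -0.32 and means of 10.72 and 10.71 with vehicle and 10.25 and 10.11 with WIN 18,446. Cnn1 read at or below 2.22 on all arrays. Of 9 Sertoli genes 5 fell (Sox9, Cldn11, Wt1, Dhh and Sox8; 2.91% of all probe sets tested fell), with list means of 12.85 and 12.87 with vehicle and 12.61 and 12.52 with WIN 18,446. Without treated array 1 these 5 differed by -1.05, -1.25, -0.66, -0.44 and -0.94. With either vehicle array left out their calls were lost, as were those over all probe sets tested. Sox8 also lost its call with either treated array left out, and Wt1 without treated array 2. Amh and Inha of the same list differed the other way, by 1.25 and 0.16, and were not called (adjusted p = 0.0575 and 0.177). Gata4 and Clu differed by 0.02 and 0.06 and were not called, and the list had a median difference of -0.43. The part of these cells in the collagen values was not tested.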

How the data were processed

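Total RNA from 4 samples (2 vehicle, 2 WIN 18,446) was amplified, labelled with biotin and hybridised to 1 array each, per the labels' protocols. The authors' deposited table holds log2 levels, already normalized. RMA and GCRMA are both listed in the submitters' processing notes, with no word on which gave these values; that they are log2 follows from their span, 1.74 to 16.24. Dim probe sets lie close together near the bacterial controls, so differences at such levels are not read. The table has 45101 probe sets, of which 64 controls were left out. Of the rest, 34945 have 1 symbol in GEO's annotation of the array, 932 have several and 9160 are unnamed here. All 42 collagen symbols were found by gene ID in RefSeq.

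Probe sets with a mean of at least 5 were fitted with limma 3.58.1 in R 4.3.3 (lmFit, eBayes with a variance trend, two-sided, Benjamini-Hochberg over 20895 probe sets; 2 residual and 3.19 prior degrees of freedom), which was tested on simulated data. Called means an adjusted p under 0.05. An exact permutation test of 2 arrays against 2 cannot go below 0.333, so none is given. A gene is represented by its tested probe set of highest mean. Genes named are all collagens, with array values for those called, those differing by at least 1 and the chains of the common types, and, of the other list, those called and up to 2 more per role; others were picked with their values in view. The members, lists and rules were chosen with earlier results of these data known. The alternatives were other filters on level, normalizations and variance moderation, a block for the replicate number, leaving out each array, 1 probe set per gene, and an adjusted p under 0.10. The number of arrays limits the precision.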

Additional observations from a re-analysis of the deposited data

How the results depend on the processing

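The count of 4 collagen probe sets called lower became 0 with no filter on level (10 at an unadjusted p under 0.05) and 1 with no variance trend, and lay between 0 and 2 when an array was left out. The count called higher, 0, became 1 with a minimum mean of 7, robust moderation, equal array medians, a further quantile normalization, the replicate block, 1 probe set per gene and an adjusted p under 0.10, each time Col15a1, and ranged from 0 to 1 with an array left out. The list of modifying and binding genes had 4 calls, which became 0 with no filter (14 at an unadjusted p under 0.05) and 1 with no variance trend, and ranged from 0 to 6 with an array left out. Over all probe sets tested 1083 calls became 3, 372 and 2216 with no filter, with no variance trend and at an adjusted p under 0.10, and 0 to 1398 with an array left out. The collagen median of -0.09 became -0.0083 with no filter, where untested dim probe sets enter, and ranged from -0.10 to -0.0072 with an array left out. With the replicate number as a block limma called 5 collagen probe sets lower, 1 higher and 1467 probe sets in all. Deviations of same-numbered arrays from their group means correlated at 0.014 over 20895 probe sets. That value shows no linear relation of these deviations across probe sets. With 2 arrays per group it cannot tell whether the numbers pair the arrays. With an array left out, its lone partner was taken to vary as the other group does, and some uncalled differences changed sign: Col1a1 -0.076 to 0.19 and -0.0086 to 0.21, Col1a2 -0.061 to 0.087, Col3a1 -0.0019 to 0.081 and -0.041 to 0.0096, Col5a1 -0.037 to 0.081 and -0.049 to 0.78 and -0.20 to 0.49, Col5a2 -0.16 to 0.027, Col6a2 -0.038 to 0.18. The cause of these changes was not tested. Every called collagen probe set kept its sign under all alternatives run.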
